A study of Macaca mulatta with 30 samples.

Results

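Skeletal muscle genes were followed in the salivary glands of rhesus macaques (Macaca mulatta). The genes were chosen by name: 10 genes of the contractile and energy apparatus of skeletal muscle were listed, and the rows of the deposited abundance table that carry those names were taken, whatever their values. The table held 9 of the 10 among 21292 gene rows; the slow myosin heavy chain MYH7 was not analysed here. All 9 passed the filter on low values, which left 13550 genes for testing.

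The study took parotid, submandibular and sublingual gland, pancreas and liver from the same 6 animals, 1 library for each tissue and animal, 30 libraries in all, to compare gene expression in salivary glands with that in digestive organs. Animals 1 to 4 were female and animals 5 and 6 male; no treatment, genotype or age is given in the labels. RNA came from 3 sections of 30 µm cut from flash-frozen tissue, and was sequenced as paired reads of 150 bases. The parotid library of animal 3 came from the right gland and the others from the left. Values are TPM, a share of a fixed total of transcripts that is corrected for transcript length, so levels can be compared between genes but the number of reads behind each value is unknown.

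In striated muscle, bundles of myosin (thick filaments) pull on bundles of actin (thin filaments), and calcium starts the pull by binding troponin on the thin filament. Fast and slow fibres build this machine from partner genes: fast fibres use the heavy chains MYH1 and MYH2, the light chain MYLPF and the fast troponins, and slow fibres use MYH7 and the slow troponins. Salivary glands are secretory epithelium, and several lie against muscles of the jaw, tongue and floor of the mouth.

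The labels held in most libraries. The summed TPM of 12 salivary secretory genes was 49592 to 290616 in the parotid, and the 13 pancreas markers and 14 liver markers present were each lower in every gland than in their own organ by limma, all with adjusted p under 0.05. The submandibular, sublingual and pancreas libraries of animal 4 stood apart. The submandibular one held 2376 TPM of the secretory genes against a median of 263767 over the 6 submandibular libraries, the sublingual one 5338 TPM against a sublingual median of 225319, and liver 6512 to 9520 TPM. The pancreas one held 4420 TPM of the pancreas markers against a median of 342808. Summed adipose markers were the highest of their tissues in the submandibular and pancreas libraries, at 8248 and 18433 TPM, and 163 TPM in the sublingual one. The number of muscle genes called was the same in each of the 9 comparisons with the submandibular and pancreas libraries left out, and with all libraries of animal 4 left out.

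Muscle transcripts were abundant in 4 of the 18 gland libraries and low in the rest. The 9 genes together made up 73678 TPM, or 7.37% of all transcripts, in the parotid of animal 6. They summed to 24023 TPM (2.40%) in the sublingual gland of animal 5, to 7968 TPM in the sublingual gland of animal 1 and to 5380 TPM in the parotid of animal 1. The other 26 libraries, of all 5 tissues, lay between 50.0 and 807 TPM. Tissue medians were therefore close, 271 TPM in submandibular gland, 261 in pancreas, 240 in sublingual gland, 234 in parotid and 105 in liver. No tissue was high throughout. Animals 2 and 3 had their highest sums in the pancreas, at 336 and 320 TPM, and animal 4 in the submandibular gland. Since each library is bulk RNA, fewer cells of a type and less RNA per cell cannot be told apart, nor can muscle fibres within the sections be told from the same transcripts reaching the library in another way.

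**Figure D1:**
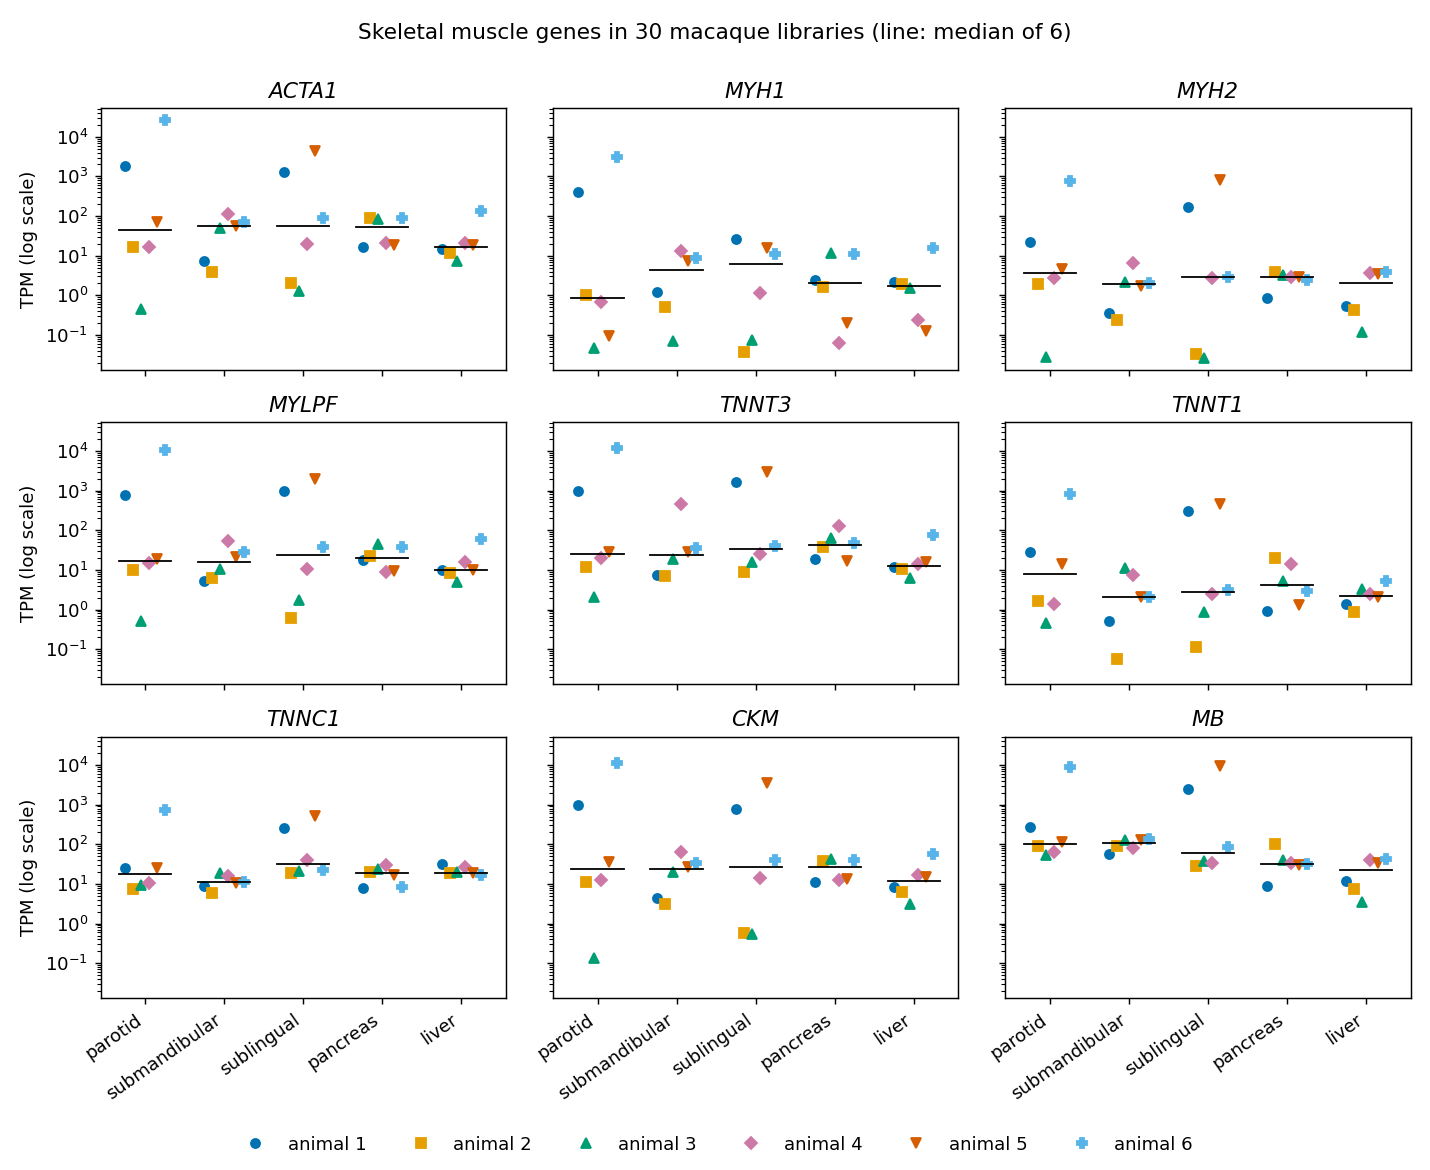
TPM of the 9 skeletal muscle genes (log axis) in each tissue, 1 point per library with colour and shape marking the animal and a line at the median of 6. The parotid libraries of animals 1 and 6 and the sublingual libraries of animals 1 and 5 lie above the rest for ACTA1, which exceeds 1000 TPM only there, while MB stays at 28.0 TPM or more in every gland library.

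Among thick filament genes, MYH1, the heavy chain of the fastest fibres in large mammals, ranged in parotid from 0.0482 to 3179 TPM with a median of 0.867. It reached 398 TPM in the parotid of animal 1. In sublingual gland it ran only from 0.0384 to 26.7 TPM (median 6.14). The sublingual libraries of animals 1 and 5, rich in other muscle transcripts, held 26.7 and 15.7 TPM of MYH1. That was far below the parotids of animals 1 and 6, though the other 26 libraries held at most 15.5 TPM. Submandibular values were 0.0713 to 13.3 TPM, pancreas values 0.0632 to 11.9 and liver values 0.124 to 15.5.

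MYH2, the heavy chain of fast oxidative fibres, was highest in the sublingual gland of animal 5 at 831 TPM. The parotid of animal 6 followed with 777, the sublingual gland of animal 1 with 168 and the parotid of animal 1 with 22.3 TPM. No other library exceeded 6.71 TPM. MYLPF, the regulatory light chain of fast fibres, was 10369 TPM in the parotid of animal 6. It was 2008 TPM in the sublingual gland of animal 5, 979 in that of animal 1 and 787 in the parotid of animal 1, against at most 61.1 TPM elsewhere. These 4 libraries led for MYLPF and MYH2, though in a different order.

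On the thin filament, ACTA1, the actin of skeletal muscle, was 26127 TPM in the parotid of animal 6 and 4484 in the sublingual gland of animal 5. The parotid and sublingual libraries of animal 1 held 1883 and 1287 TPM. All other libraries lay between 0.446 (parotid of animal 3) and 133 TPM (liver of animal 6). Within the parotid alone the highest value was thus 58566 times the lowest, and parotid values both exceeded and fell below every pancreas and liver value.

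TNNT3, the fast troponin T that ties the troponin complex to tropomyosin, followed ACTA1 in the parotid of animal 6 (11610 TPM) and the sublingual gland of animal 5 (2956 TPM). It was 1660 TPM in the sublingual gland of animal 1 and 1000 TPM in the parotid of animal 1. Next came the submandibular and pancreas libraries of animal 4, at 452 and 128 TPM. The ratio of TNNT3 to MYLPF was 8.30 and 14.3 in these 2 libraries against 1.12 to 1.69 in the 4 richest. It was also high in the sublingual glands of animals 2 and 3, at 14.9 and 9.21, where TNNT3 was far lower. The 2 libraries of animal 4 had the high adipose sums given above, and summed smooth muscle markers of 1874 and 4479 TPM; their part in the TNNT3 values was not tested.

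Slow-fibre troponins were the lower of the thin filament genes. TNNT1, the slow troponin T, was 814 TPM in the parotid of animal 6, 464 and 305 TPM in the sublingual glands of animals 5 and 1, and 27.4 TPM in the parotid of animal 1. It did not exceed 20.3 TPM elsewhere. TNNC1, the calcium-binding troponin C of slow and cardiac muscle, was 743, 510, 257 and 26.0 TPM in the same order of libraries. TNNC1 had a floor that ACTA1 lacked: its lowest value in any library was 6.04 TPM, and the parotid of animal 3, with 0.446 TPM of ACTA1, held 9.58 TPM of TNNC1.

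CKM, the creatine kinase that buffers ATP in contracting muscle, was 11067 TPM in the parotid of animal 6 and 3453 TPM in the sublingual gland of animal 5. The libraries of animal 1 held 956 TPM (parotid) and 777 TPM (sublingual), and no other library exceeded 63.2 TPM. MB, myoglobin, stores oxygen in oxidative fibres and was distributed otherwise. Its highest values were 9303 TPM in the sublingual gland of animal 5, 8992 in the parotid of animal 6 and 2508 in the sublingual gland of animal 1. In the submandibular gland, where no library was rich in the other members, MB was still 55.7 to 133 TPM (mean 103 ± 31.1, SD, n = 6). Liver held 3.50 to 42.3 TPM (mean 23.1 ± 17.4, SD, n = 6), and pancreas 9.03 to 101 TPM (mean 40.9 ± 31.2, SD, n = 6). The lowest MB value was 54.1 TPM in parotid and 28.0 TPM in sublingual gland.

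Tests across the whole table called few of these genes. In parotid and sublingual gland the SD of TPM over animals exceeded the mean for each of the 9. The tests used log2(TPM + 1), and the part of this spread in the few calls was not tested. For parotid against pancreas, limma called 0 of the 9 genes at an adjusted p of 0.05, where 15.8% of all genes tested were called; 1 passed unadjusted and 0 passed an exact sign-flip test over the 6 animals, whose smallest possible p is 0.03125. The median difference of the 9 was 1.46 on the log2(TPM + 1) scale against a median of -0.48 over all genes. ACTA1 differed by 1.37 (SE 1.54) and was higher in the parotid of 3 of 6 animals. For submandibular gland against pancreas, 0 of 9 were called by limma, 0 unadjusted and 0 by the exact test, with 9.71% of all genes called. The median difference was -0.42 against -0.33 over all genes. For sublingual gland against pancreas, 0 of 9 were called by limma and 0 by the exact test, 2 passed unadjusted (MB and TNNC1), and 13.9% of all genes were called. The median difference was 1.16 against 0.23.

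Against liver, MB was the gene that passed. In parotid it was higher by 3.60 (SE 1.12, limma adjusted p = 0.00871), in 6 of 6 animals, and was the 1 member called where 58.0% of all genes were called and 4.61% were called higher in parotid. The adjusted p ran from 0.000298 to 0.0345 over 16 alternatives. In sublingual gland MB was higher than in liver by 3.55 (SE 1.12, limma adjusted p = 0.0163), in 5 of 6 animals, again as the 1 member called, with 31.5% of all genes called and 12.8% called higher in sublingual gland. In that comparison 0 members passed without animal 1 or without animal 5. The same held without the 4 richest libraries, where the MB difference was 1.13. Those 4 were chosen for their high values of these same genes, so a smaller difference without them follows from that choice. In submandibular gland 0 of 9 were called against liver, with 50.7% of all genes called and 1 member passing unadjusted. MB there differed by 2.50 (SE 1.12, limma adjusted p = 0.0660), and each of the 6 animals had more MB in the submandibular gland. The exact sign-flip test, which uses only the spread of that difference, gave 0.03125 for MB, its smallest possible value, and the same for TNNC1, which was lower in the submandibular gland of 6 of 6 animals (mean difference -0.87). Trimmed-mean scaling and quantile normalisation turned that TNNC1 difference to 0.08 and 0.34.

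**Figure D2:**
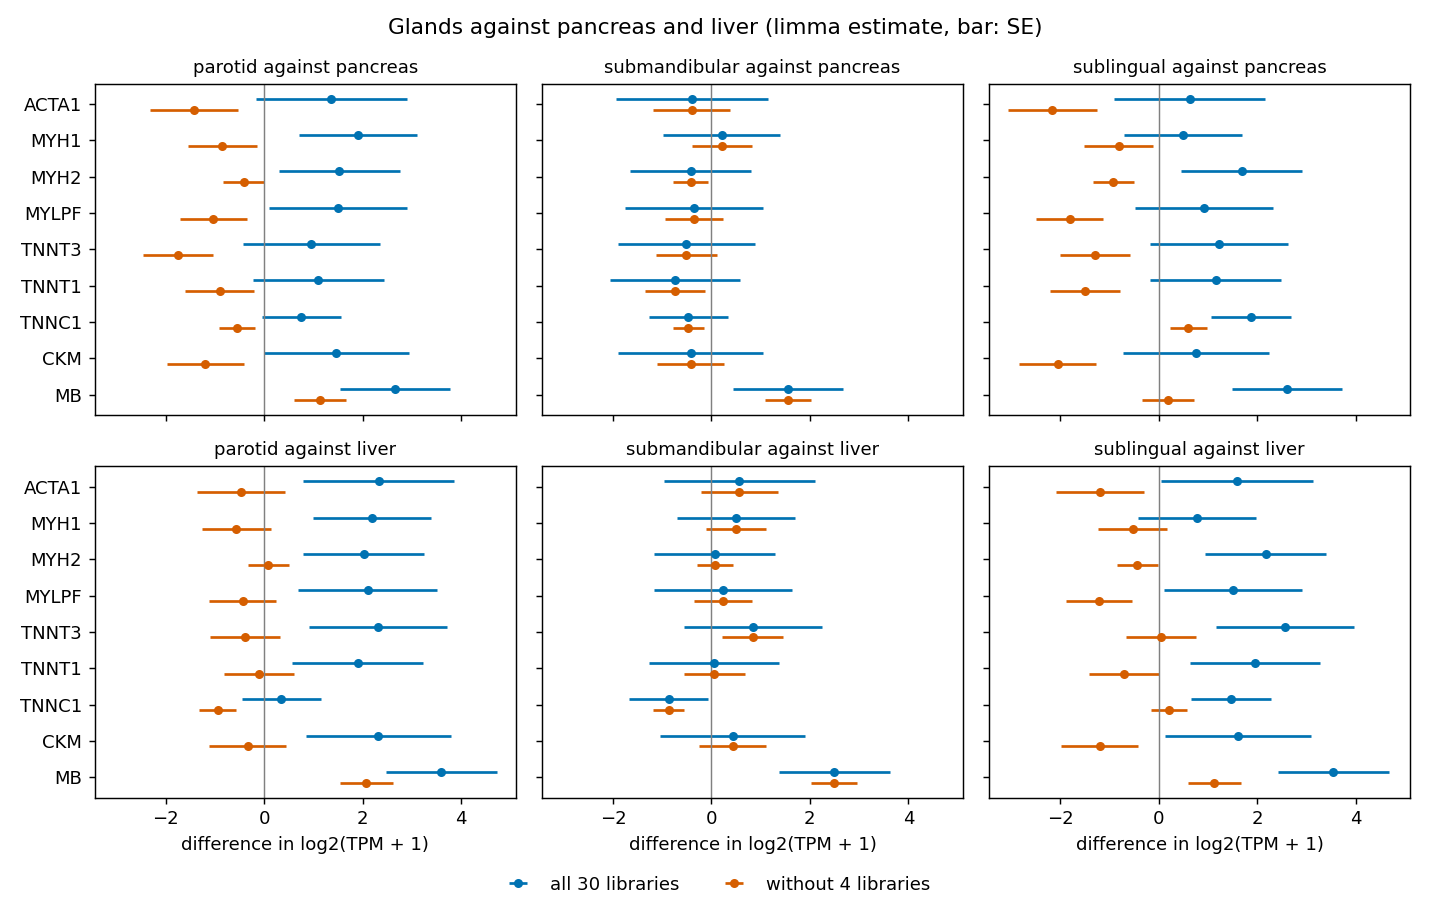
Difference of each of the 9 genes in log2(TPM + 1), each gland against pancreas (top) and liver (bottom), as limma estimates with bars of 1 SE, from all 30 libraries and without the 4 richest in muscle transcripts. For parotid and sublingual gland most estimates change sign between the 2 fits, and the 4 were chosen for their high values of these genes. MB in parotid against liver stays above 0, at 3.60 and 2.08.

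The parotid and sublingual medians depended on the same 4 libraries. Without them, the median difference of the 9 genes from pancreas went from 1.46 to -0.90 in parotid and from 1.16 to -1.29 in sublingual gland. Against liver it went from 2.19 to -0.39 and from 1.62 to -0.52. MB stayed higher than in liver, by 2.08 (SE 0.53, limma adjusted p = 0.00220) in the remaining parotid libraries. The libraries left out were chosen for their high values of these same genes. Lower parotid and sublingual values without them follow from that choice, and calls gained or kept without them are not read as results.

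Among glands, 1 member passed 1 of 3 comparisons. TNNC1 was lower in submandibular than in sublingual gland (difference -2.34, SE 0.81, limma adjusted p = 0.0327), in 6 of 6 animals. Values were 6.04 to 19.2 TPM in submandibular gland and 19.4 to 510 TPM in sublingual gland. Over all genes 27.9% were called, and 27.2% as lower in submandibular gland. The call was lost without the 4 richest libraries (-1.07, limma adjusted p = 0.0648) and without animals 1, 2 or 5, and also under both other scalings and with no filter on low values (limma adjusted p from 0.00432 to 0.199 over 16 alternatives). Parotid against submandibular gland gave 0 of 9 by limma, 0 unadjusted and 0 by the exact test, with 0.347% of all genes called, and parotid against sublingual gland likewise 0, 0 and 0, with 41.5% called.

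The ratio of MB to ACTA1 differed between gland libraries. The ratio of MB to ACTA1 was 0.148 and 0.344 in the muscle-rich parotids of animals 1 and 6, and 1.95 and 2.07 in the muscle-rich sublingual glands of animals 1 and 5. In the parotid of animal 3, where ACTA1 was 0.446 TPM, MB was 54.1 TPM and the ratio 121. The next highest ratios were 28.0 and 13.8 in the sublingual glands of animals 3 and 2, and 24.1 in the submandibular gland of animal 2. In liver and pancreas the ratio stayed between 0.319 and 1.89.

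**Figure D3:**
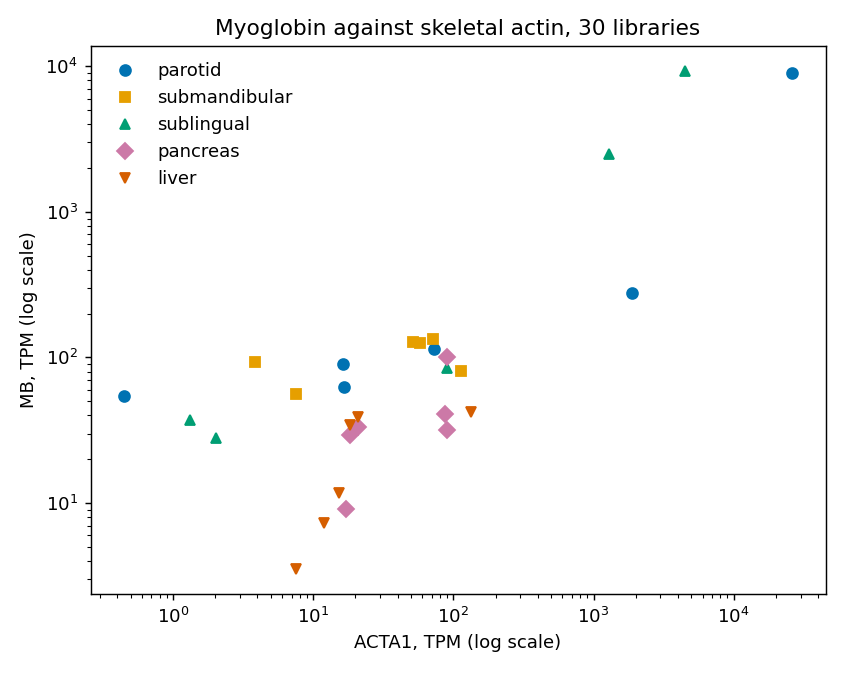
MB against ACTA1 in TPM (both axes log) for the 30 libraries, marked by tissue. The 4 muscle-rich gland libraries lie far right, and at ACTA1 levels under 10 TPM the gland libraries keep MB between 28.0 and 92.6 TPM.

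Fast and slow genes were then compared within each library that held much muscle RNA, using 13 fast-fibre and 10 slow-fibre genes present in the table. These 4 libraries were picked by their level of muscle transcripts, so each is described alone and no test is given. Fast genes made up most of the sum in all 4: 96.8% in the parotid of animal 1, 92.9% in the parotid of animal 6, 86.6% in the sublingual gland of animal 1 and 82.7% in the sublingual gland of animal 5. Both parotid pieces were thus further towards fast genes than both sublingual pieces. With MYH7 not analysed here, the slow side rests on troponins, light chains and binding proteins.

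In the 4 partner pairs taken as ratios, fast was above slow in each rich library. The binding proteins MYBPC2 (fast) and MYBPC1 (slow) were not among these pairs. Over the rich libraries they ran from 20.6 to 986 TPM and from 30.9 to 911 TPM, so MYBPC1 was above MYBPC2 where MYBPC2 was lowest. TNNT3 over TNNT1 was 36.5 and 14.3 in the parotids of animals 1 and 6, and 5.45 and 6.38 in the sublingual glands of animals 1 and 5. For troponin I, the inhibitory subunit, TNNI2 over TNNI1 was 30.9, 10.9, 7.47 and 3.82 in the same order. For troponin C, TNNC2 over TNNC1 was 64.2, 29.0, 8.63 and 6.82. MYLPF over MYL2, the regulatory light chain of slow fibres and heart ventricle, was 13.4, 4.39, 3.43 and 2.42. In each of these pairs both parotid values were above both sublingual values, and the parotid of animal 1 was the highest of the rich libraries. Fast above slow was not particular to them. In the other 26 libraries the median ratios were 12.7 (troponin T), 4.88 (troponin I), 1.18 (troponin C) and 4.46 (MYLPF over MYL2). The troponin T and light chain medians were above both sublingual values, and the troponin C median was below all the rich libraries.

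**Figure D4:**
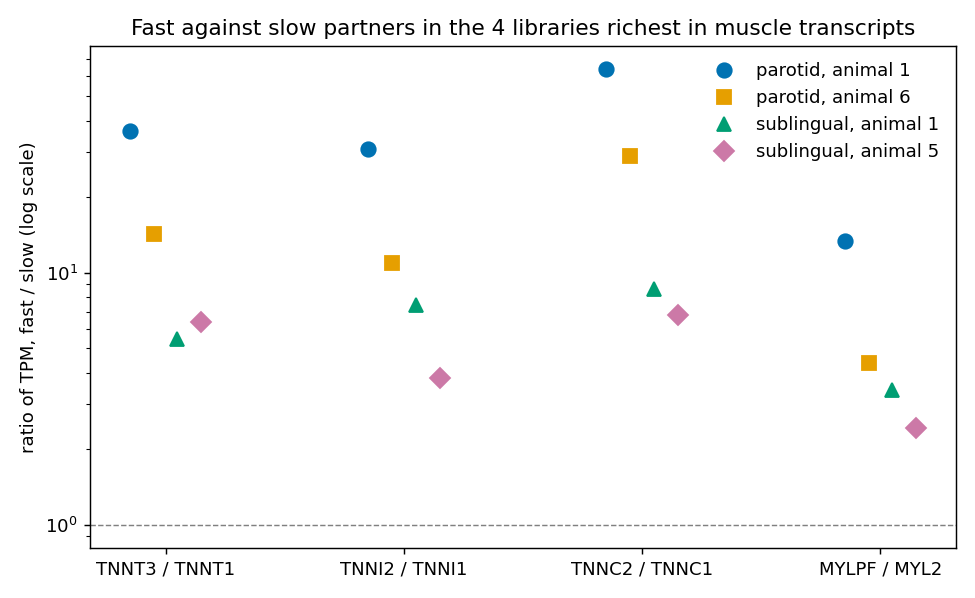
Ratio of TPM of the fast to the slow partner (log axis) for 4 gene pairs in the 4 libraries richest in muscle transcripts, 1 point per library; the dashed line marks equal levels. All 16 ratios lie above 1, and the 2 parotid pieces exceed the 2 sublingual pieces in each pair.

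The fast myosins also differed between the 4 rich pieces. MYH1 was 94.7% of MYH1 plus MYH2 in the parotid of animal 1 and 80.4% in that of animal 6, but 13.7% and 1.85% in the sublingual glands of animals 1 and 5. Animal 1 gave 1 piece of each kind, so its parotid and sublingual muscle transcripts differed within 1 animal. PVALB, the calcium buffer parvalbumin, was 185 and 1624 TPM in the 2 parotids, and 25.7 and 8.05 TPM in the sublingual pieces of animals 1 and 5. ACTN3, the Z-disc actinin of fast fibres, was 135 and 1156 TPM in the parotids against 7.43 and 51.0 TPM, so within the sublingual pieces it was higher in animal 5, where MYH1 was lower. SLN, sarcolipin, an inhibitor of the calcium pump, was 0.156 and 0.268 of ACTA1 in the parotids and 0.785 and 1.14 of it in the sublingual pieces.

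Myosin composition also varied in the libraries with little muscle RNA. In animal 6 the MYH1 share was 80.4% in the muscle-rich parotid, 82.1% in pancreas, 81.2% in submandibular gland, 79.7% in liver and 78.9% in sublingual gland, although MYH1 plus MYH2 ran from 10.9 to 3956 TPM. In animal 5 the share was 1.85% in sublingual gland, 1.98% in parotid, 3.42% in liver and 6.35% in pancreas, but 80.9% in submandibular gland. In animal 1 the 2 rich pieces differed (94.7% and 13.7%), and submandibular gland, pancreas and liver had 77.1%, 74.5% and 80.0%. The remaining animals were mixed, with 3.20% in the submandibular gland of animal 3 and 93.0% in its liver. In 3 libraries the 2 genes summed to under 0.5 TPM, and their shares carry little information.

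**Figure D5:**
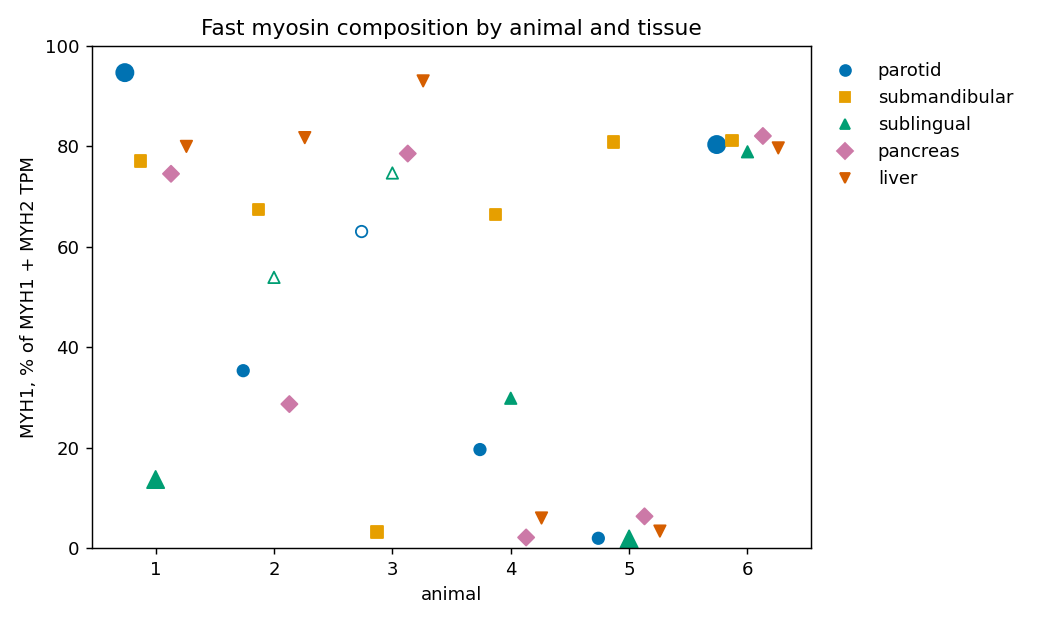
MYH1 as a percentage of MYH1 plus MYH2 TPM for the 5 tissues of each animal; large symbols mark libraries with over 100 TPM of the 2 genes and open symbols those under 0.5 TPM. The 5 libraries of animal 6 lie between 78.9% and 82.1%, and 4 of the 5 libraries of animal 5 lie at or below 6.35%.

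Both pair ratios were low in 3 libraries of different animals and tissues. The pancreas of animal 2, the parotid of animal 5 and the submandibular gland of animal 3 held 90.1, 72.8 and 51.5 TPM of ACTA1, with TNNT3 over TNNT1 at 1.83, 2.00 and 1.66. MYLPF over MYL2 was 0.671, 0.866 and 0.550 there, so the slow light chain exceeded the fast one. Fast genes still made up 62.1%, 58.5% and 53.5% of the summed fast and slow TPM. The lowest share was 25.3%, in the parotid of animal 3, where the fast and slow genes summed to 7.15 and 21.1 TPM. TNNT3 over TNNT1 was also low in the liver of animal 3, at 1.89, and MYLPF over MYL2 in the sublingual gland of animal 2, at 0.607. None of the 4 rich pieces had ratios this low. For scale, transcripts of another organ were also found in every tissue: liver markers outside liver stood at a median of 0.729% of their liver mean and pancreas markers outside pancreas at 0.734% of their pancreas mean. The members' median in the 26 libraries was 0.00501% to 0.808% of the highest library's value; whether the low muscle values share a source with those markers was not tested.

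Other genes of muscle moved with the members in the 4 rich libraries, though few passed between tissues. Over all genes, 15.8% were called in parotid against pancreas and 58.0% in parotid against liver. Of the 12 fast-fibre genes tested, 1 was called in parotid against pancreas and 1 against liver, PVALB both times, by 2.72 and 3.34 (limma adjusted p = 0.0464 and 0.00384). Without the 4 richest libraries those differences were 0.61 and 1.22 and neither passed (limma adjusted p = 0.426 and 0.0986), and without the submandibular and pancreas libraries of animal 4 the first did not (limma adjusted p = 0.0588). Of the 8 slow-fibre genes tested, 0 were called in any gland against pancreas or liver, and 0 or 1 passed unadjusted in each. Of all genes, 9.71% to 58.0% were called by limma in those comparisons. Among 17 sarcomere and Z-disc genes tested, LMOD2, which lengthens thin filaments, was called in sublingual gland against liver by 2.34 (limma adjusted p = 0.0452). In that comparison 31.5% of all genes were called. TCAP, the titin cap, was 7199, 2781, 1367 and 429 TPM in the parotid of animal 6, the sublingual glands of animals 5 and 1 and the parotid of animal 1, and 54.3 TPM or less in the other 26 libraries.

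Of 7 genes tested that couple the membrane signal to calcium release, JPH2, which holds the 2 membranes together, was called in parotid against liver by 1.94 (limma adjusted p = 0.0141). In that comparison 58.0% of all genes were called. Without the 4 richest libraries JPH2 did not pass the filter on low values, so its call cannot be checked without them. STAC3, part of the calcium channel complex, was 389 TPM in the parotid of animal 6 and at least 41.1 TPM in the other 3 rich libraries, against at most 9.64 TPM elsewhere. Of 11 energy genes tested, 2 were called in parotid against liver, 1 in submandibular gland against liver and 2 in sublingual gland against liver, where 58.0%, 50.7% and 31.5% of all genes were called. PFKM, the muscle phosphofructokinase, was called in parotid against liver by 2.19 (limma adjusted p = 0.0447) but not without the 4 richest libraries (0.21, limma adjusted p = 0.633). LDHB, a lactate dehydrogenase subunit, was among them in all 3 and is made in many tissues. FABP3, a fatty acid carrier of heart and oxidative muscle, was higher in sublingual gland than in pancreas by 3.09 and than in liver by 2.95 (limma adjusted p = 0.0110 and 0.00678).

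The muscle transcription factor MYF6, kept on in mature fibres, was 76.3 TPM in the parotid of animal 6, 36.6 and 12.5 TPM in the sublingual glands of animals 5 and 1 and 5.81 TPM in the parotid of animal 1; the other 26 libraries held 2.01 TPM or less. At the nerve-muscle junction, where 4 of 10 genes were tested, CHRNE, the adult acetylcholine receptor subunit, was the only call in the 6 comparisons with pancreas and liver. It was lower in parotid and submandibular gland than in pancreas (differences -1.35 and -1.13, limma adjusted p = 0.00614 and 0.0279), where 15.8% and 9.71% of all genes were called. The junction genes CHRNB1, RAPSN and DOK7 were 5.25 to 32.0, 1.99 to 19.3 and 0.440 to 9.21 TPM in the 4 rich libraries. In the other 26 their medians were 2.49, 0.624 and 0.113 TPM, and their highest values 10.3, 3.27 and 6.02 TPM.

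The cardiac hormone genes NPPA and NPPB were listed at 0 in all 4 rich libraries, and the atrial light chain MYL7 reached 0.118 TPM at most there. The cardiac genes MYH6 and NKX2-5 reached 1.60 and 1.09 TPM in the 4, against at most 0.0563 and 0.137 TPM in the other 26. TNNI3 and MYBPC3 reached 0.473 and 0.265 TPM in the 4, against up to 0.745 and 0.453 TPM in the other 26. The cardiac troponin T gene TNNT2 was higher in sublingual gland than in pancreas by 1.96 and than in liver by 1.43 (limma adjusted p = 0.00484 and 0.0223, the latter 0.0711 without the 4 richest libraries), but its values, 72.9 TPM in the sublingual gland of animal 1 and 1.24 TPM in both rich parotids, did not follow the members. Embryonic MYH3 was 0.0753 to 0.722 TPM in the 4 rich libraries and at most 0.0552 TPM in the other 26, and MYH4, a heavy chain of the fastest fibres of small mammals, was at most 1.73 TPM in any library. MYH13, a heavy chain of eye and larynx muscle, reached 4.91 TPM in the parotid of animal 6 and 0.0713 TPM at most elsewhere. Smooth muscle markers summed to 169 to 373 TPM in parotid and 175 to 847 TPM in sublingual gland, a narrower range than that of the members.

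Across the 18 gland libraries, the genes whose log2(TPM + 1) ran closest to the mean of the 9 members were MYOZ1 (Pearson r = 0.994), EEF1A2 (0.991), DES (0.989), ENO3 (0.986), TNNC2 (0.986), PYGM (0.986), MYBPC1 (0.986) and KLHL41 (0.984). EEF1A2, an elongation factor of muscle and neurons, was the 1 of these 8 in none of the muscle lists; it was 1191 TPM in the parotid of animal 6. Each member was compared in the same way with the mean of the other 8: MYLPF followed it most closely (r = 0.989) and MYH1 (0.836), TNNC1 (0.867) and MB (0.925) least. These coefficients describe 18 libraries that share animals and a fixed total.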

How the data were processed

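The 9 genes and the wider lists were chosen with earlier results of these data known. The authors deposited 1 table of TPM values for 30 libraries, made with kallisto per the submitters' processing notes; its version, the transcriptome, the genome build and the summing of transcripts to genes are not given in the sources used here. Each column sums to a fixed total, so depth is unknown, no interval from counts is given, and a rise in abundant genes lowers all others. The number of unused sample columns was 0.

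For each comparison a linear model of log2(TPM + 1) was fitted with limma (version 3.58.1, R 4.3.3); this scale understates changes of low genes. Genes reaching 1 TPM in 6 or more libraries entered, 13550 in all. A single model with tissue and animal terms covered all 30 libraries, and the two-sided p-values of each comparison were corrected over all genes by Benjamini-Hochberg. The animal block follows the within-subject design: deviations from tissue means correlated at a mean r of 0.161 within animals (60 pairs) and -0.0186 between them (300 pairs). On simulated data for parotid against pancreas, with 200 of 13550 genes changed by 3 log2 units, 87% were recovered. Those genes were drawn at random from all tested, so the share does not hold for the members, whose SEs there were 0.81 to 1.54. The exact test flips the signs of the 6 within-animal differences. Genes named are the members, the fast, slow, developmental and cardiac lists, the 3 genes of each other muscle list with the highest mean TPM over 18 gland libraries, and the 8 nearest in pattern to the members; LMOD2, JPH2, LDHB, PFKM, FABP3 and CHRNE were added after their values were seen, because the test called them. The ratio of MYH2 to MYH7 was not computed, because MYH7 was not analysed here. Replicates are separate animals, no 2 libraries held identical values, and library pairs correlated at 0.984 at most. No table of protein or promoter sequences was used. A further result is not reported here.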

Additional observations from a re-analysis of the deposited data

Results flagged for a closer look

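The spread was checked in 45 sets, each the 6 libraries of 1 tissue for 1 of the 9 genes: a value stood out where its gap to the next, divided by the range of the 6, both on the log2(TPM + 1) scale, exceeded the critical value of Dixon's test for 6 values. This picked out 4 sets, where chance gives about 2.25, or 5%. In the liver of animal 6, ACTA1 was 132.6 TPM with the next liver value at 20.8, and TNNT3 was 77.6 TPM with the next at 15.5. In the parotid of animal 6, MB was 8992 TPM with the next parotid value at 279, and TNNC1 was 743 TPM with the next at 26.0. Animal 6 thus gave all 4. Females and males were also set side by side in 54 sets. In 1 of them, TNNC1 in parotid against liver, each of the 4 females had less TNNC1 in parotid than in liver and both males had more. The mean differences lay 3.82 apart on the log2(TPM + 1) scale; this difference was not tested, and the parotid of 1 of the 2 males is the richest in muscle transcripts of all libraries.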

How the results depend on the processing

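With the animal block left out ("no replicate block"), the number of members called stayed at 0, 0 and 0 for parotid, submandibular and sublingual gland against pancreas, at 1, 0 and 1 against liver, and at 0, 0 and 1 among glands, so the pairing by animal changed no call. A filter of 5 TPM, no filter, no variance trend and a pseudocount of 0.1 also kept those counts, except that submandibular against sublingual gland gave 0 with no filter. Trimmed-mean scaling gave 1 for parotid against pancreas, 2 for parotid against liver, 1 for submandibular gland against liver and 0 for submandibular against sublingual gland; quantile normalisation gave 1, 6, 1 and 0 there, and 2 for sublingual gland against liver. Both scalings brought the median difference over all genes near 0 (parotid against liver from -0.84 to 0.004 and 0.0969), and the share of calls higher in parotid against liver went from 7.94% to 46.0% and 55.3%. Fitting only the 12 libraries compared gave 1 for submandibular gland against pancreas, 2 for parotid against liver and 1 for submandibular gland against liver. Leaving out each animal gave 0 to 1 for sublingual gland against pancreas, 0 to 2 for sublingual gland against liver, 0 to 1 for parotid against sublingual and 0 to 1 for submandibular against sublingual gland. The median log2 ratio of fast to slow genes in submandibular gland was 2.41 from summed TPM and 1.31 from the mean of log2 values. Apart from the built-in effect of fewer libraries or genes, the cause was not tested.

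Without the parotid libraries of animals 1 and 6 and the sublingual libraries of animals 1 and 5, a choice made after seeing the data, the counts were 1 for submandibular gland against pancreas, 2 for parotid against liver, 2 for submandibular gland against liver, 0 for sublingual gland against liver, 1 for parotid against sublingual and 0 for submandibular against sublingual gland. These libraries were chosen for their high values of the same genes. Lower parotid and sublingual values without them follow from that choice, and counts gained there are not read as calls. Signs turned in 28 of 54 differences of 1 gene. In parotid against pancreas the values became -1.43 (ACTA1), -1.19 (CKM), -0.85 (MYH1), -0.41 (MYH2), -0.90 (TNNT1), -1.74 (TNNT3), -1.03 (MYLPF) and -0.54 (TNNC1). In sublingual gland against pancreas they became -2.16 (ACTA1), -2.05 (CKM), -0.81 (MYH1), -0.92 (MYH2), -1.50 (TNNT1), -1.29 (TNNT3) and -1.81 (MYLPF). Against liver, parotid gave -0.46 (ACTA1), -0.34 (CKM), -0.57 (MYH1), -0.11 (TNNT1), -0.39 (TNNT3), -0.44 (MYLPF) and -0.95 (TNNC1), and sublingual gland -1.19 (ACTA1), -1.20 (CKM), -0.52 (MYH1), -0.43 (MYH2), -0.70 (TNNT1) and -1.21 (MYLPF).

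In submandibular gland signs also turned. Against pancreas, trimmed-mean scaling gave 0.11 (ACTA1), 0.065 (CKM), 0.017 (TNNT3), 0.13 (MYLPF) and 0.067 (TNNC1), and quantile normalisation 0.025 (ACTA1), 0.043 (MYLPF) and 0.017 (TNNC1). Against liver, TNNC1 was 0.084 and 0.34 under these, and TNNT1 was -0.31 with a pseudocount of 0.1. Without the submandibular and pancreas libraries of animal 4, also chosen after seeing the data, MYH1 was -0.50 against pancreas, and against liver the values were -0.087 (ACTA1), -0.16 (CKM), -0.23 (MYH1), -0.38 (MYH2), -0.48 (TNNT1), -0.21 (TNNT3) and -0.34 (MYLPF). Leaving out each animal turned 25 signs. For sublingual gland against pancreas the ranges were -0.82 to 1.80 (ACTA1), -0.67 to 1.87 (CKM), -0.18 to 1.30 (MYH1), -0.41 to 1.92 (MYLPF), -0.14 to 2.24 (TNNT1) and -0.00717 to 1.93 (TNNT3). For parotid they were -0.36 to 1.18 (TNNC1), -0.21 to 1.93 (TNNT1) and -0.42 to 2.03 (TNNT3) against pancreas, and -0.66 to 0.66 (TNNC1) against liver. For submandibular gland they were -0.95 to 0.37 (ACTA1), -0.95 to 0.15 (CKM) and -0.50 to 0.97 (MYH1) against pancreas, and -0.11 to 0.84 (MYH1), -0.21 to 0.23 (MYH2), -0.055 to 0.50 (MYLPF) and -0.24 to 0.27 (TNNT1) against liver. Of all 912 such alternative values, 814 kept their direction and side of the threshold. The unknown depth limits how far values under 1 TPM can be read.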
